A study of Homo sapiens with 36 samples.

Results

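The comparison described here is the knockdown of ATF6 in A549 cells kept in 25 mM glucose for 16 h. A549 is an established human lung adenocarcinoma cell line. Its members were chosen by sample title as the 3 libraries from cells given siRNA against ATF6 (siATF6) and the 3 from cells given a non-targeting siRNA (siControl) at that time and glucose level, 6 of the 36 libraries of the series. The whole study crossed siControl, siATF4 and siATF6 with 25 or 0 mM glucose and with 6 or 16 h, in 3 biological replicates each. All groups carried siRNA at 100 nM with a lipid transfection reagent, and all were treated in pyruvate-free medium with dialysed serum and glutamine. One day after transfection each culture was detached and divided between wells, so, as the protocol reads, the 25 and 0 mM wells of an siRNA come from a shared transfection. Poly(A) RNA was sequenced as read pairs of 150 bases without strand information. All replicates are cultures of 1 cell line, and the p-values measure the spread between such cultures. ATF6 was targeted by 1 siRNA treatment, and the sources do not say how many sequences it held, so effects of losing ATF6 and effects of that siRNA on other transcripts cannot be told apart.

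ATF6 is a transcription factor made as a membrane protein of the endoplasmic reticulum (ER). When unfolded protein builds up in the ER, it moves to the Golgi, is cut by proteases there, and its freed part enters the nucleus and binds ER stress response elements in promoters of chaperone, disulfide isomerase and ER degradation genes. It is 1 of the main arms of the unfolded protein response, beside IRE1 with XBP1 and PERK with ATF4. Glucose shortage raises ER stress because protein glycosylation runs short of sugar, whereas cells in 25 mM glucose are the fed state of this study.

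The 6 libraries held 41018744 to 58124979 RSEM expected counts. Levels are given below as CPM (counts scaled to a common library total) after scaling by TMM (trimmed mean of M values, which corrects for composition), always in the order replicate 1, 2, 3. A gene was called changed at a Benjamini-Hochberg adjusted p under 0.05 over all 18013 gene IDs tested with edgeR's quasi-likelihood test, fitted to the 18 libraries of 16 h. Replicate 1 of both groups stood apart from the others: the mean chi-square per ID between siATF6 libraries was 55.2 for replicates 1 and 2, 55.4 for 1 and 3, and 9.07 for 2 and 3, and the siControl values were 56.1, 63.2 and 10.4. Same-numbered libraries deviated together, so values with the replicate number as a block are given where they change a call. One library outside the comparison, siATF4 in 0 mM glucose replicate 3, also stood apart, with a TMM factor of 0.796. The cells carried the A549 marker transcripts in every library, with summed levels of 16895 to 22665 CPM in siControl and 17731 to 19560 CPM in siATF6. Of 17 markers of blood, endothelium, fibroblasts, muscle and neurons, 12 passed the filter on low counts, with summed levels of all tested members of 79.9 to 93.3 CPM in siControl and 63.9 to 90.4 CPM in siATF6. The blood marker CD3E was at 0 counts in all 6 libraries, and PTPRC had at most 2 counts in any of them. CD68, a myeloid marker, had 1082 to 2135 counts in siControl and 1361 to 2398 in siATF6 (adjusted p = 0.921).

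The targeted gene was lower in every siATF6 library. ATF6 (ENSG00000118217.6, chr1:161766320-161964070, plus strand, GRCh38) stood at 45.2, 44.6 and 43.9 CPM in siControl and at 10.1, 7.72 and 8.26 CPM in siATF6. The 3 siATF6 values lie close together and far from the siControl values. The mRNA that remained was 19.5% of control, a log2 fold change of -2.36 (95% interval -2.75 to -1.97, adjusted p = 1.79e-05). The paralog ATF6B, a related ER membrane factor, stood at 41.1, 44.2 and 41.4 CPM in siControl and at 48.3, 49.2 and 50.1 CPM in siATF6. Its groups did not overlap, which held for 29.4% of all IDs tested, and the difference of 0.22 did not pass (adjusted p = 0.365). ATF6 was also lower in the other conditions, with a log2 fold change of -2.58 in 0 mM glucose at 16 h (adjusted p = 4.85e-06) and of -2.30 in 25 mM glucose at 6 h (adjusted p = 0.00751). Against cells given siATF4, ATF6 was lower by -2.47 (adjusted p = 5.93e-06).

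Loss of ATF6 mRNA in fed cells left its best-known targets near their control level. HSPA5, which encodes the main ER chaperone BiP, stood at 703, 696 and 684 CPM in siControl and at 736, 692 and 680 CPM in siATF6. The groups overlap, and the log2 difference was 0.02 with a 95% interval of -0.19 to 0.23 (adjusted p = 0.983). HSP90B1, the ER form of HSP90, stood at 668, 595 and 610 CPM against 679, 579 and 567 CPM, a log2 difference of -0.04 with an interval of -0.31 to 0.24 (adjusted p = 0.971). CRELD2, an ER protein with disulfide isomerase activity, stood at 25.1, 23.4 and 24.0 CPM against 22.3, 18.4 and 19.3 CPM. All 3 siATF6 values were below the siControl values, and the log2 difference of -0.27 (interval -0.58 to 0.04) did not pass (adjusted p = 0.548). DNAJB11, a co-chaperone of BiP, differed by -0.08 (adjusted p = 0.793) and PDIA4, an ER disulfide isomerase, by -0.15 (adjusted p = 0.765). The intervals cover counting and culture error, and for HSPA5 they leave out any decrease beyond -0.19 on the log2 scale.

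The same genes were lower with siATF6 when glucose was absent, where their levels were many times higher. In 0 mM glucose HSPA5 averaged 10195 CPM ± 451 (SD, n = 3) in siControl and 7332 CPM ± 290 in siATF6, and fell by 0.48 on the log2 scale (adjusted p = 0.0133). HSP90B1 averaged 4348 CPM ± 205 against 2325 CPM ± 93.4 and fell by 0.90 (adjusted p = 0.00136). CRELD2 stood at 425, 435 and 456 CPM against 179, 173 and 152 CPM and fell by 1.38 (adjusted p = 0.00014). DNAJB11 fell by 0.76 (adjusted p = 0.000138). The difference between the siATF6 effects in the 2 glucose levels was tested for each gene. It was -1.11 for CRELD2 (adjusted p = 0.347), -0.86 for HSP90B1 (adjusted p = 0.511), -0.68 for DNAJB11 (adjusted p = 0.093) and -0.49 for HSPA5 (adjusted p = 1). None passed over 18013 IDs. With the replicate block PDIA4 passed, at -0.95 (adjusted p = 0.0496), while CRELD2 had an adjusted p of 0.137, HSP90B1 of 0.0776 and DNAJB11 of 0.0718. No ID passed this interaction test without the block, 412 had an unadjusted p under 0.05, 2 passed with the block (0.0111%) and 18 passed with DESeq2.

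**Figure D1:**
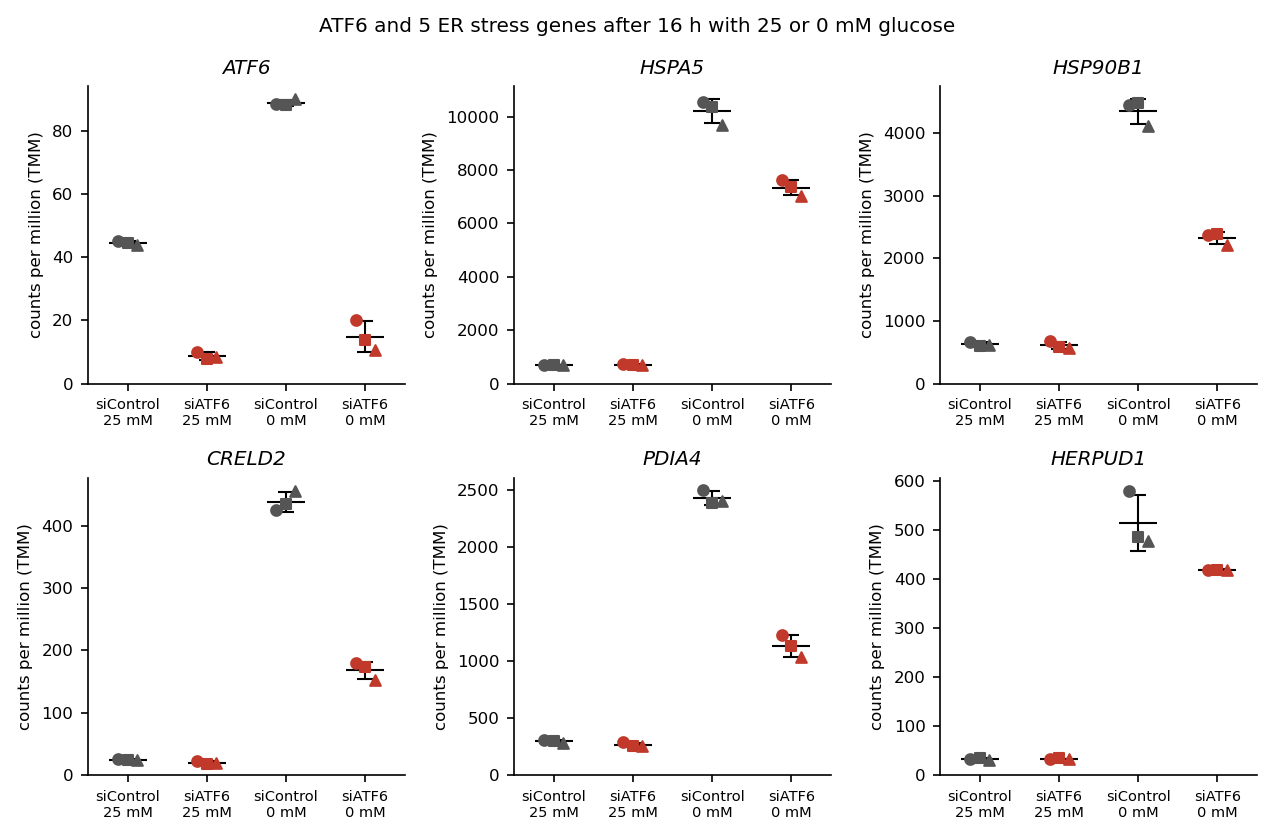
Levels of ATF6 and 5 ER genes in CPM (linear axis from 0) in siControl and siATF6 cells at 16 h in 25 and 0 mM glucose; circles, squares and triangles are replicates 1, 2 and 3, and bars give the mean ± SD. ATF6 is lower with siATF6 at both glucose levels, whereas the 3 siATF6 values of HSPA5 in 25 mM glucose (680 to 736 CPM) overlap the siControl values (684 to 703 CPM).

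The promoters of HSPA5, HSP90B1, CRELD2 and HERPUD1 carry the letters of elements that ATF6 is known to bind, which is why they are shown. The ER stress response element (ERSE) was searched on both strands as CCAAT and CCACG separated by 9 bases, and its second form (ERSE-II) as ATTGG and CCACG separated by 1 base. The unfolded protein response element (UPRE) was searched as TGACGTGG and the cyclic AMP response element (CRE) as TGACGTCA, which share their first 6 letters. Searches used the window from 250 bases before to 50 bases after the start in RefSeq's annotation of GRCh38.p14, and 11892 of the 18013 tested IDs matched a promoter. The first 250 bases of each window are printed 5′ to 3′ on the strand of the gene, with the matched letters in capitals. A match on the opposite strand reads CGTGG and ATTGG. HSPA5 lies on the minus strand (chr9:125241344-125241593), and HSP90B1 (chr12:103930160-103930409), CRELD2 (chr22:49918384-49918633) and HERPUD1 (chr16:56931892-56932141), an ER degradation gene with the ERSE-II form, lie on the plus strand.
HSPA5: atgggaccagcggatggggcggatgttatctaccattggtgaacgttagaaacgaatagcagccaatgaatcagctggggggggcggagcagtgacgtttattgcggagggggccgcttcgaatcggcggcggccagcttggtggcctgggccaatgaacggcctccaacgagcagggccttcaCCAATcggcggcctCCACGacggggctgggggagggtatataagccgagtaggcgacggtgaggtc
HSP90B1: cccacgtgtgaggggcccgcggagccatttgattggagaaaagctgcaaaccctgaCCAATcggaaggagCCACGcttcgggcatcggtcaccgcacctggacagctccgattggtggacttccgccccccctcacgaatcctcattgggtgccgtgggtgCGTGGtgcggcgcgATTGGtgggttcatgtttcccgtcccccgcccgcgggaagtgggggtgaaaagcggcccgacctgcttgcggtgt
CRELD2: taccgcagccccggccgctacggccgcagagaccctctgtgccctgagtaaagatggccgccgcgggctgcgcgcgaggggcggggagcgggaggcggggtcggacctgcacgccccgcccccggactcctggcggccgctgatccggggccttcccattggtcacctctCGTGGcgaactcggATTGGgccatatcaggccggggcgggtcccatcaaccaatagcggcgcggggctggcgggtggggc
HERPUD1: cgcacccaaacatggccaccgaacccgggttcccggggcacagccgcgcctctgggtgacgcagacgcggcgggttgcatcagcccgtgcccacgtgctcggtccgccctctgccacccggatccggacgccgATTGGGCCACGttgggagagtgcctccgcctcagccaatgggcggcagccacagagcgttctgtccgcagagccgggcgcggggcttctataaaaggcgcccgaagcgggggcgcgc
The ERSE of HSPA5 lies 66 to 48 bases before the start, those of HSP90B1 194 to 176 and 89 to 71 bases before it, and that of CRELD2 80 to 62 bases before it.

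The ERSE letters were in 0.151% of the tested genes' promoters and in 5 of the 17 ER chaperone promoters matched (29.4%: HSPA5, HSP90B1, CRELD2, CALR and CANX). Of the genes called in the present comparison, 74 of 101 lower and 26 of 34 higher genes had a promoter in the table, and none of these held the ERSE or the ERSE-II. The CRE letters were in 3.63% of tested promoters, in 1 of the 74 lower genes' promoters (1.35%: NACAD) and in 1 of the 26 higher ones (3.85%: FAM131A). The UPRE letters were in 1.17% of tested promoters, in 4 of the 74 lower genes' promoters (5.41%: KCNK1, LSAMP, TMEM130 and MINAR1) and in 0 of the 26 higher ones. Across the gene lists described below the share ran from 0% to 23.1%, the latter in 6 of 26 vesicle transport promoters. The translocon and glycosylation list had 3 of 23 (13.0%) and the ER chaperones 2 of 17 (11.8%). No member of these named lists was called. Windows for KCNK1, a potassium channel subunit (plus strand, chr1:233613856-233614105), and LSAMP, a neuronal adhesion protein (minus strand, chr3:116445488-116445737), are printed as examples among the genes that fell. Both were chosen after their values were seen.
KCNK1: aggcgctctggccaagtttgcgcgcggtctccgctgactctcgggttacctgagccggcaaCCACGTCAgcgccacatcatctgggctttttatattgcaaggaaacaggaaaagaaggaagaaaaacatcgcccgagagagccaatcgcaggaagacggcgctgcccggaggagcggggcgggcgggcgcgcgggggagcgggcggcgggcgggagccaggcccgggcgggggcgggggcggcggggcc
LSAMP: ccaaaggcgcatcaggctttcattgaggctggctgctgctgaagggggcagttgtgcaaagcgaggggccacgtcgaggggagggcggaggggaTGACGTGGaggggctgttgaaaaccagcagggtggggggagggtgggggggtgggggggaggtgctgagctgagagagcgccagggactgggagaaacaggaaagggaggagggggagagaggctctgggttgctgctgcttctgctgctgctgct
A match says only that the letters are present in the window, and no binding was measured.

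Most of the transcripts called across all genes were lower, but their number depended strongly on the fit. Of 18013 IDs, 135 passed (0.749%), 101 lower (0.561%) and 34 higher (0.189%), while 1962 had an unadjusted p under 0.05. Scaling by upper quartiles gave 161, 138 of them lower (85.7% of calls, against 74.8% with TMM). With the replicate block 531 passed (2.95%), 384 lower (2.13%) and 147 higher (0.816%), among them all 135. Fitted to the 6 compared libraries alone 942 of 16741 IDs passed (308 higher), DESeq2 gave 500 (175 higher), and a fit of all 36 libraries gave 4. The median log2 fold change was -0.99 among the 101 lower genes and 0.56 among the 34 higher ones, against 0.02 over all IDs tested. Past a change of 1 on the log2 scale lay 50 of the lower and 3 of the higher genes. Of the lower genes 96 are protein coding, and of the higher ones all 34. The count rests on every library: it was 92 without siControl replicate 1, 36 without siControl replicate 2, 23 without siControl replicate 3, and 54, 19 and 36 without siATF6 replicate 1, 2 or 3. It was 324 without the siATF4 library in 0 mM glucose that stood apart. In all 6 fits that left out 1 of the compared libraries 18 genes passed, 16 lower and 2 higher.

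**Figure D2:**
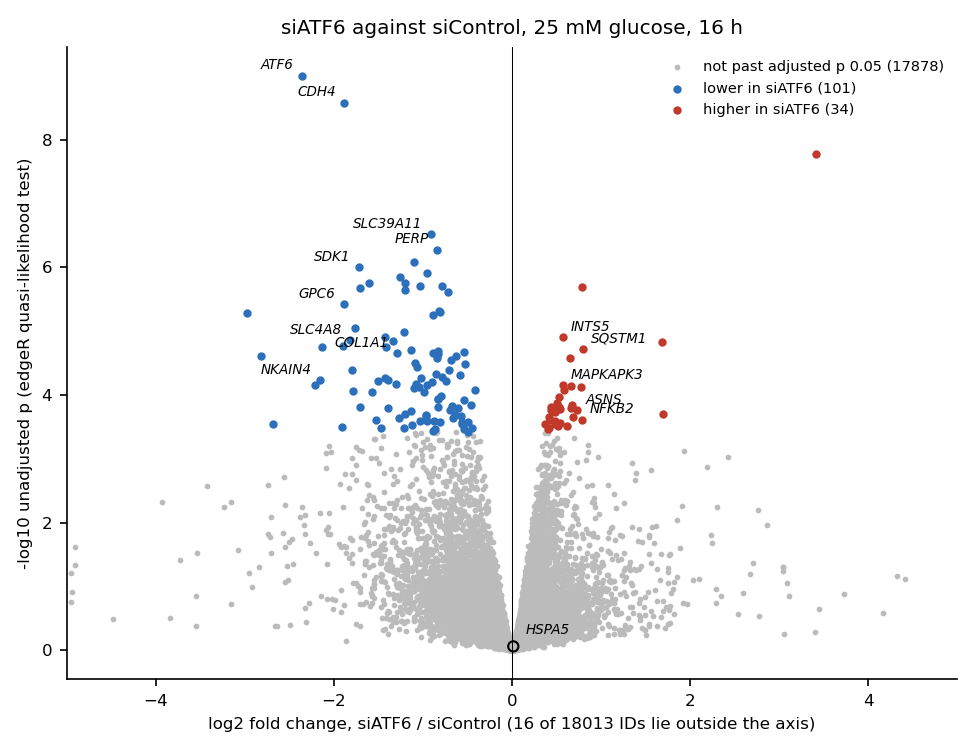
Log2 fold change of siATF6 over siControl (25 mM glucose, 16 h) against −log10 of the unadjusted p for every gene ID within the axes; grey marks IDs that did not pass, and coloured points mark the 101 lower and 34 higher IDs. Past a change of 1 lie 50 of the lower and 3 of the higher calls, and ATF6 stands at -2.36.

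Several genes of cell contact and the cell surface were among the decreases named by the rule. CDH4, which encodes R-cadherin (chr20:61252261-61940617), stood at 41.0, 48.7 and 45.2 CPM in siControl and at 10.9, 11.4 and 14.3 CPM in siATF6. It fell by 1.88 on the log2 scale (adjusted p = 2.35e-05) and passed in all 6 left-out fits. GPC6, a heparan sulfate proteoglycan held at the cell surface (chr13:93226807-94408020), stood at 17.7, 13.6 and 14.3 CPM against 4.51, 3.10 and 4.68 CPM. It fell by 1.89 (adjusted p = 0.00381), again in all 6 left-out fits. The sidekick genes encode large adhesion proteins with immunoglobulin domains that join neurons in matching layers. SDK1 stood at 5.99, 5.51 and 6.03 CPM against 1.72, 1.66 and 1.93 CPM and fell by 1.72 (adjusted p = 0.0025). SDK2 stood at 3.52, 7.27 and 6.81 CPM against 1.20, 1.46 and 2.42 CPM and fell by 1.78 (adjusted p = 0.0218). In SDK2 replicate 1 was low in both groups. LRRN2, a leucine-rich repeat membrane protein, stood at 25.6, 27.5 and 27.4 CPM against 10.8, 12.9 and 14.0 CPM and fell by 1.10 (adjusted p = 0.00245). PERP, a membrane protein of desmosomes and a p53 target, was the most abundant of the lower genes that the rule named outside the lists. It stood at 217, 231 and 239 CPM against 123, 123 and 137 CPM, and fell by 0.84 (adjusted p = 0.00189).

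Transport and signalling genes were also among the lower calls. NKAIN4, whose protein binds the sodium pump, stood at 3.50, 6.44 and 6.95 CPM against 1.28, 1.09 and 1.40 CPM and had, after ATF6, the largest decrease the rule named, at -2.16 (adjusted p = 0.0186). SLC4A8, a sodium-driven bicarbonate exchanger, stood at 9.07, 8.15 and 11.0 CPM against 3.02, 2.14 and 2.86 CPM and fell by 1.81 (adjusted p = 0.00901). Its siATF4 value against siControl was -1.33 (adjusted p = 0.191). SLC39A11, a zinc transporter, stood at 22.5, 22.9 and 24.5 CPM against 11.8, 12.0 and 13.4 CPM and fell by 0.91 (adjusted p = 0.00136). SYT1, a calcium sensor of vesicle release, stood at 26.6, 22.6 and 27.2 CPM against 10.2, 8.35 and 10.1 CPM and fell by 1.41 (adjusted p = 0.00994). PLD5, a phospholipase D family member, fell by 1.43 (adjusted p = 0.00865). MIR31HG, the long noncoding host transcript of miR-31, fell by 1.25 (adjusted p = 0.0025), and 40.7% of its exonic bases in GENCODE 29 are shared with another gene, so its reads are uncertain. Of these genes SLC39A11, MIR31HG, LRRN2, PERP and SDK1 passed in all 6 left-out fits. SLC4A8 and PLD5 were lost without siControl replicate 3 or siATF6 replicate 2, and SYT1 also without siATF6 replicate 3. SDK2 and NKAIN4 were lost without siControl replicate 2 or 3 or siATF6 replicate 1 or 2, and NKAIN4 also without siATF6 replicate 3. Over all alternatives tried NKAIN4 ranged from -2.41 to -1.98.

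The 34 higher genes moved less. SQSTM1, the autophagy receptor p62, stood at 1457, 1365 and 1314 CPM in siControl and at 2360, 2486 and 2354 CPM in siATF6. It rose by 0.80 on the log2 scale (adjusted p = 0.0102). Cells given siATF4 had a similar SQSTM1 value against siControl, 0.74 (adjusted p = 0.0652), and the difference between siATF6 and siATF4 was 0.06. In GENCODE 29, 22.0% of its exonic bases overlap MRNIP, which averaged 30.2 CPM. CTSL, the lysosomal protease cathepsin L, stood at 368, 386 and 351 CPM against 582, 618 and 536 CPM and rose by 0.65 (adjusted p = 0.0111). NFKB2, the p100 subunit of NF-kB, stood at 133, 88.4 and 101 CPM against 204, 184 and 167 CPM and rose by 0.78 (adjusted p = 0.0403). Against siATF4 cells it was also higher, by 0.82 (adjusted p = 0.0484). ASNS, which makes asparagine and is a known ATF4 target, stood at 84.3, 105 and 98.7 CPM against 134, 175 and 170 CPM and rose by 0.73 (adjusted p = 0.0328). Of its exonic bases 44.6% are shared with a clone-named gene at 9.80 CPM. ASNS was higher than in siATF4 cells by 0.80 (adjusted p = 0.03).

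IPPK, the kinase that makes inositol hexakisphosphate, stood at 15.5, 14.0 and 13.3 CPM against 25.4, 24.6 and 24.0 CPM and rose by 0.79 (adjusted p = 0.0025). It shares 72.0% of its exonic bases with CENPP, which averaged 10.6 CPM in siControl, so the share of reads that belongs to IPPK is uncertain. INTS5, a subunit of the Integrator complex that ends transcription, rose by 0.57 (adjusted p = 0.00865) and POLR3G, a subunit of RNA polymerase III, by 0.69 (adjusted p = 0.0373). MLKL, the effector of necroptosis, rose by 0.62 (adjusted p = 0.0442) from 21.9, 21.3 and 23.2 CPM to 33.2, 35.4 and 33.2 CPM. GPAT3, an acyltransferase of triglyceride synthesis, rose by 0.59 (adjusted p = 0.0217), MAPKAPK3, a kinase downstream of p38, by 0.57 (adjusted p = 0.0197) and TSC22D1, a leucine zipper regulator, by 0.67 (adjusted p = 0.0324). ADAMTSL4, ANKRD10 and ZNF587B rose by 0.78, 0.68 and 0.66. The highest fold change belonged to IL2RG, a cytokine receptor subunit below the level the naming rule required and chosen after its values were seen, at 3.42 (adjusted p = 9.9e-05), with 50.8% of its exonic bases shared with another gene. IPPK and IL2RG were the 2 higher genes that passed in all 6 left-out fits. SQSTM1, CTSL and INTS5 were lost without siControl replicate 2 or 3 or siATF6 replicate 2. ADAMTSL4, NFKB2 and GPAT3 passed only without siControl replicate 1, ASNS only without siATF6 replicate 1, and MLKL, POLR3G, TSC22D1, ANKRD10, MAPKAPK3 and ZNF587B in none of the 6. MLKL and ANKRD10 also missed the threshold with upper-quartile scaling.

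**Figure D3:**
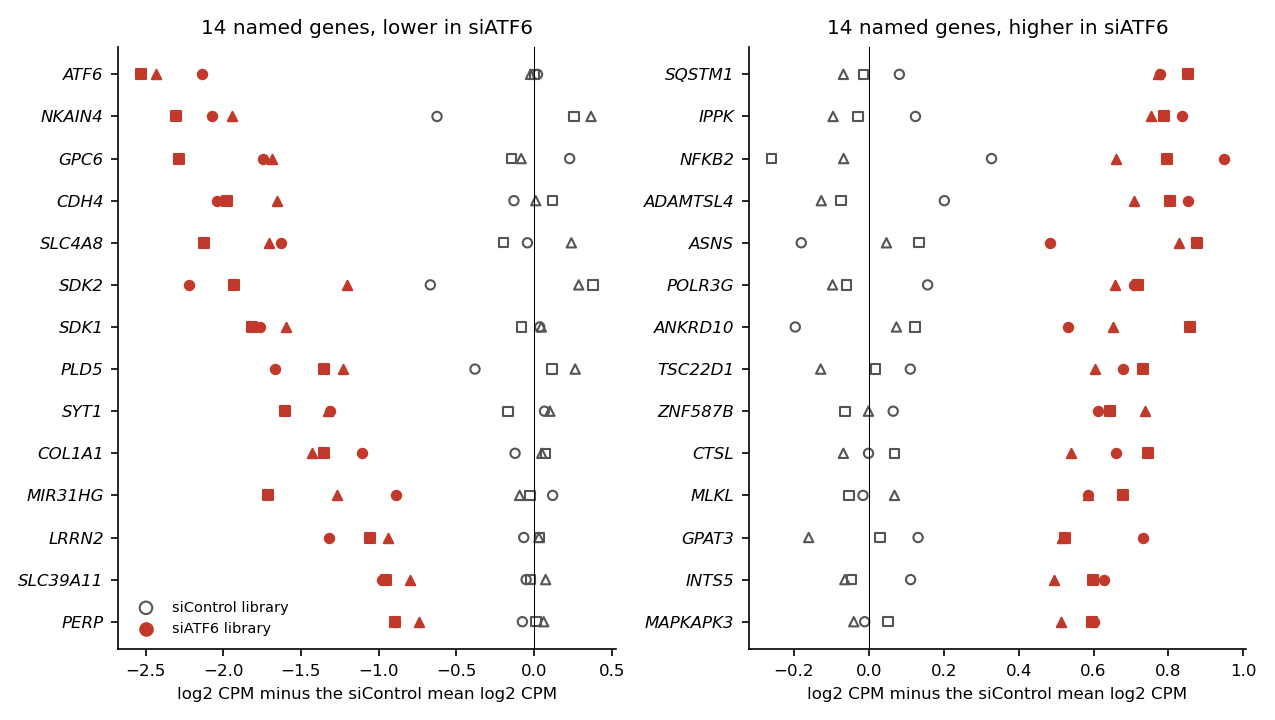
Log2 CPM of each library minus the siControl mean for 14 lower and 14 higher genes named by the rule; each row is a gene, and symbols mark siControl and siATF6 replicates. The siATF6 libraries lie on 1 side of the siControl libraries in every row, which the choice of called genes favours. Over all IDs tested 29.4% had groups that did not overlap. The lower genes span a wider range than the higher ones.

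Lists of ER genes had no call in fed cells, where 0.749% of all IDs passed, so lists of this size would hold few calls at the background share. None of 18 tested ER chaperones and co-chaperones passed in either direction, with a median log2 fold change of -0.02, and the summed level of the list was 3104 to 3485 CPM in siControl and 3148 to 3489 CPM in siATF6. None of 21 disulfide isomerases and oxidases passed (median 0.08). ERO1A, an oxidase of the ER that also responds to hypoxia, averaged 115 CPM ± 18.8 (SD, n = 3) in siControl and 74.9 CPM ± 6.58 in siATF6, a difference of -0.62 with an adjusted p of 0.207 that passed only with the replicate block (adjusted p = 0.00845). None of 24 ER degradation genes passed (median 0.02). HERPUD1 differed by -0.01 (adjusted p = 0.996). SEL1L, the scaffold of the degradation complex, averaged 124 CPM ± 10.2 against 100.0 CPM ± 5.66 (adjusted p = 0.768). None of 28 translocon and glycosylation genes passed (median 0.11), nor any of 29 vesicle transport genes (median 0.10). The lists are not complete: the called genes SEC61A2 (translocon), DPAGT1 (glycosylation) and MESD (an ER chaperone) are not among their members. In 0 mM glucose, where 4.02% of IDs passed (2.91% lower and 1.11% higher), 4 of the 18 chaperones, 6 of the 21 isomerases and oxidases and 3 of the 24 degradation genes were lower, and none of these 3 lists had a member that was higher. The translocon and glycosylation list had 6 of 28 higher there and the vesicle transport list 2 of 29, with none lower. With the block, where 6.96% of IDs were lower and 3.23% higher in 0 mM glucose, 5 chaperones were lower, 3 of the disulfide list were higher beside 6 lower, and 5 vesicle transport genes were higher.

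Lists for the other arms of the unfolded protein response had a call for ASNS alone, against the same 0.749% of all IDs. None of 12 ER stress sensors and related membrane factors passed (median 0.12). ATF4 stood at 177, 144 and 142 CPM in siControl and at 238, 186 and 178 CPM in siATF6, a difference of 0.38 (adjusted p = 0.297). XBP1, whose mRNA is spliced by IRE1, differed by 0.26 (adjusted p = 0.378). None of 10 genes for ATF6 processing and its partner factors passed (median 0.07), and NFYC, a subunit of the factor that binds CCAAT, averaged 35.8 CPM ± 0.811 against 44.0 CPM ± 2.69 (adjusted p = 0.362). None of 17 stress regulators downstream of ATF4 passed (median 0.11). Of 16 enzymes of amino acid and one-carbon synthesis ASNS alone was higher (median 0.23), and SHMT2, the mitochondrial serine enzyme, joined it with the block at 0.58 (adjusted p = 0.128 without it and 0.0186 with it). All 20 aminoacyl-tRNA synthetases had a positive difference (median 0.21), but none passed, and AARS1 did so only with the block (0.55, adjusted p = 0.0768 and 0.00541). Over all IDs 46.8% had a negative difference. The aminoacyl-tRNA synthetase list had a median of 0.30 in siATF4 against siControl and of -0.04 in siATF6 against siATF4.

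Of 45 genes for collagens, laminins and other matrix proteins 3 were lower and none higher (median -0.21), where 0.561% of all IDs were lower, or 2.13% with the block. COL18A1, a basement membrane collagen, stood at 467, 450 and 448 CPM against 278, 240 and 254 CPM and fell by 0.82 (adjusted p = 0.00446). COL1A1, a fibrillar collagen chain, stood at 18.4, 21.1 and 20.7 CPM against 9.32, 7.85 and 7.45 CPM and fell by 1.29 (adjusted p = 0.0105). COL5A1 stood at 174, 129 and 132 CPM against 84.0, 55.2 and 60.7 CPM and fell by 1.12 (adjusted p = 0.0436), with replicate 1 high in both groups. Leaving out siATF6 replicate 2 ended the COL18A1 call, leaving out siControl replicate 2 or 3 or siATF6 replicate 2 or 3 ended that of COL1A1, and leaving out any library ended that of COL5A1. The block added SPARC at -1.17 (adjusted p = 0.00301), LTBP1 at -1.01 (adjusted p = 0.0246) and COL4A3 at -1.23 (adjusted p = 0.0365), which made 6 lower. Of 29 cadherins and protocadherins CDH4 alone was lower (median -0.41). With the block 4 were lower, FAT3 at -1.75, CDH6 at -1.19 and CDH17 at -0.73 being added. This list is not complete: the called genes CDH23 and PCDHA11 are not among its members.

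Of 32 adhesion and synaptic genes with immunoglobulin-type domains or related roles 3 were lower and none higher (median -0.32). The shares over all IDs were 0.561% lower and 0.189% higher, and 2.13% and 0.816% with the block. SLIT3, a secreted guidance cue, stood at 78.2, 67.0 and 72.0 CPM against 37.9, 31.0 and 37.7 CPM and fell by 1.03 (adjusted p = 0.0025), in all 6 left-out fits. NFASC, a neuronal adhesion protein, fell by 1.39 (adjusted p = 0.0186) from 2.14, 2.10 and 2.14 CPM to 0.890, 0.634 and 0.894 CPM. CADM1, an epithelial and synaptic adhesion protein, stood at 36.4, 33.6 and 31.8 CPM against 20.7, 18.4 and 19.5 CPM and fell by 0.80 (adjusted p = 0.0252). NFASC passed only without siControl replicate 1, and CADM1 in no left-out fit. The block added EPHB2, a receptor of ephrins, at -0.59 (adjusted p = 0.0172). This list is not complete either: the called genes LSAMP (-2.13, adjusted p = 0.00994), KIRREL3 and ESAM are not among its members. Of 19 integrins ITGA3, a laminin receptor subunit, was higher, at 1137, 1216 and 1182 CPM in siATF6 against 939, 851 and 811 CPM in siControl (0.44, adjusted p = 0.0328), and none was lower (median -0.21). That call held among the left-out fits only without siControl replicate 1. With the block ITGB8 was lower as well, at -1.47 (adjusted p = 0.0317).

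Among 20 response genes of TGF-beta and YAP 1 was lower and none higher (median -0.32). Over all IDs 0.561% were lower and 0.189% higher, or 2.13% and 0.816% with the block. The matricellular genes CCN2 and CCN1 differed by -0.95 and -0.90, and both passed only with the block (adjusted p = 0.000857 and 0.00323), as did PMEPA1, a feedback inhibitor of TGF-beta, at -0.51 (adjusted p = 0.00845). Of 19 fibrinogen, complement and acute-phase genes 1 was lower and none higher (median -0.63), and with the block 3 were lower, among them PLAT, tissue plasminogen activator, at -0.63 (adjusted p = 0.0265). The called gene C4BPB, a chain of a complement regulator, is not a member of this list. It was higher, by 1.52 to 1.84 over the alternatives, and its call was lost in every left-out fit. Of 27 lysosome and autophagy genes SQSTM1 and CTSL were higher and none was lower (median 0.01), and the block added WIPI1 as lower at -0.65 (adjusted p = 0.00332). Of 22 NF-kB targets and cytokines NFKB2 alone was higher. RELB, its partner, averaged 36.5 CPM ± 15.9 against 51.2 CPM ± 13.0 (adjusted p = 0.714).

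Several other lists had no call, with a share of 0.749% over all IDs and of 2.95% with the block. None passed of 22 cholesterol genes (median -0.01), 17 fatty acid genes, 24 interferon response genes (median 0.01), 23 p53 targets, 24 S phase genes (median 0.18), 24 genes of G2 and mitosis (median 0.02), 22 NRF2 targets or 20 cytosolic heat shock genes. The same held for 13 amino acid transporters, 15 feedback genes of WNT signalling, 24 immediate early genes, 18 hypoxia targets, 22 epithelial and mesenchymal markers and 10 airway genes. PERP, a p53 target called lower above, is not a member of the p53 list. With the block 1 of the WNT genes was lower, DKK3 at -0.65 (adjusted p = 0.0104), as were 2 hypoxia targets, and 1 airway gene was higher. Of 24 glycolysis and glucose transport genes none passed, and SLC2A1, the main glucose transporter GLUT1, was lower only with the block, at -0.68 (adjusted p = 0.112 without it and 0.00182 with it). All 24 ribosomal protein genes had positive differences (median 0.26) and all 13 mitochondrial mRNAs negative ones (median -0.24), with no call in either list. In siATF4 against siControl the ribosomal and mitochondrial medians were 0.29 and -0.01, and in siATF6 against siATF4 they were -0.02 and -0.18. Mitochondrial mRNAs made up 2.25%, 3.54% and 4.48% of counts in siControl and 1.71%, 3.66% and 3.00% in siATF6. Of the 12 tested markers of other cell types COL1A1 was lower and NEFL, a neurofilament, higher by 0.52 (adjusted p = 0.0325, lost in every left-out fit), with a median of -0.50. With the block RBFOX3, a neuronal splicing factor, was also lower, at -2.05 (adjusted p = 0.0658 without it and 0.0089 with it). The part of other cell types in the lower matrix and adhesion genes was not tested. None of the 12 A549 markers passed (median -0.08).

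**Figure D4:**
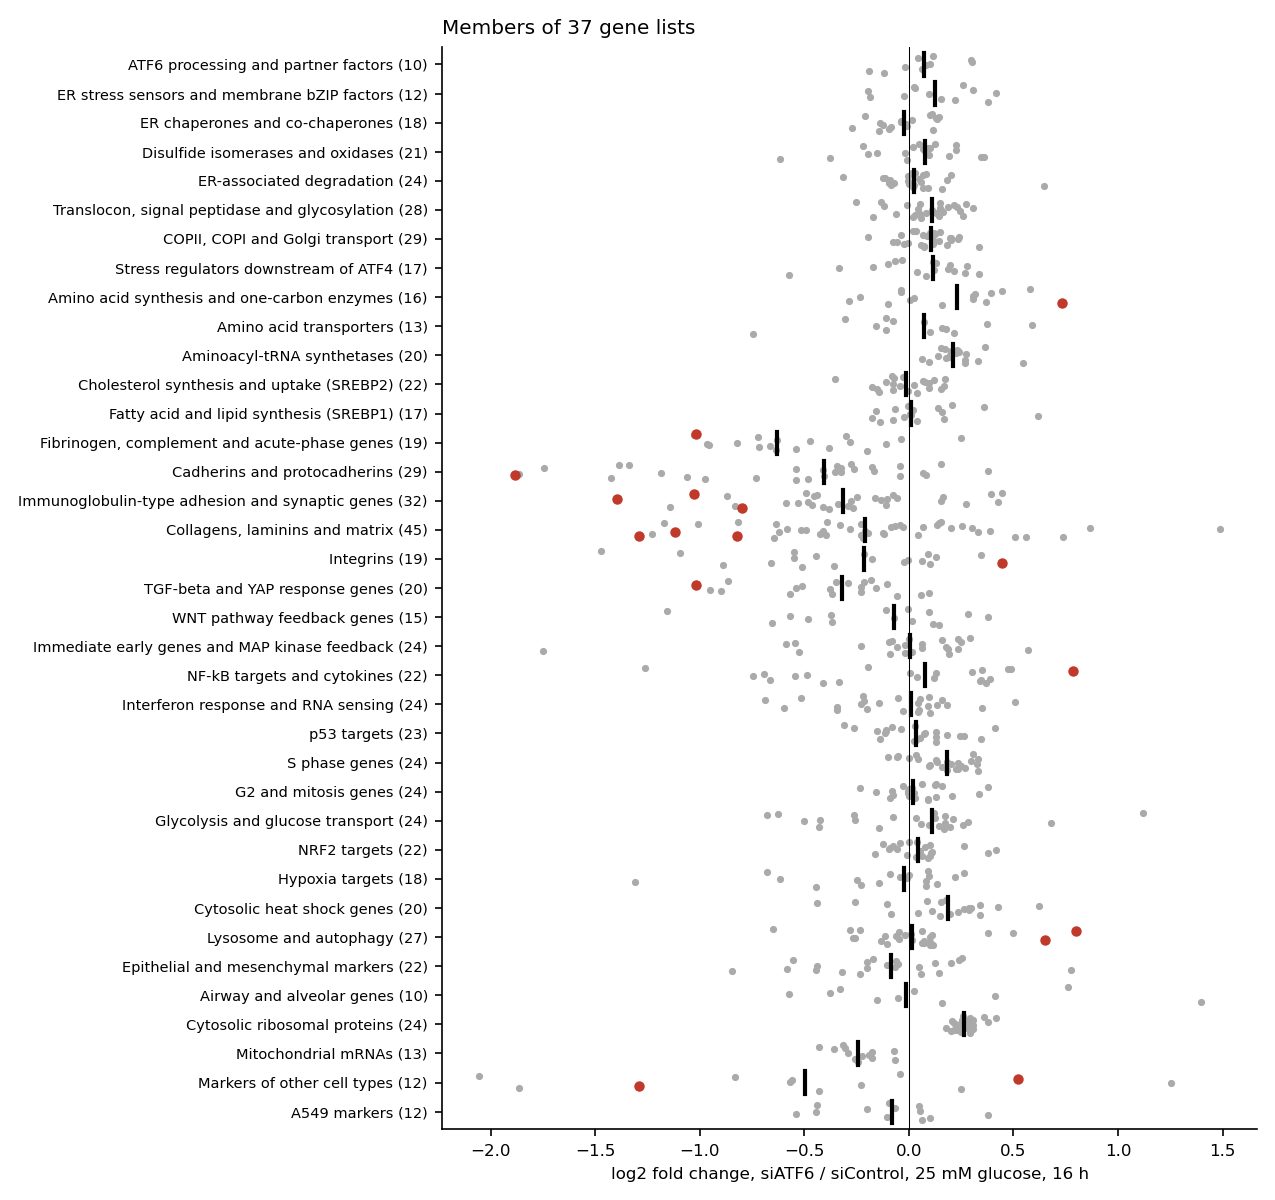
Log2 fold change (siATF6 over siControl, 25 mM glucose, 16 h) of every tested member of 37 gene lists; each point is a gene, red points passed at an adjusted p under 0.05, and black bars are list medians. The ER chaperones centre on -0.02, and the cadherins and adhesion genes on -0.41 and -0.32.

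The called genes were next followed in the other conditions of the series. At 6 h in 25 mM glucose, where 0.496% of IDs passed (0.403% lower and 0.0926% higher), all 101 lower and all 34 higher genes had the same direction, and 34 of the lower and 0 of the higher ones passed. Of all IDs tested at both times 49.1% had a negative difference at 6 h. The median over the 101 lower genes was -0.93 and that over the 34 higher genes 0.44. Replicate 2 at 6 h went against its glucose labels: HSPA5 in siControl was 3398 CPM in the library labelled 25 mM and 693 CPM in the library labelled 0 mM, against 769 to 1011 CPM and 4345 to 5430 CPM in the other replicates. Without replicate 2 of 6 h 100 of the lower and 33 of the higher genes had the same direction, and 16 IDs passed in place of 91. The 6 h wells got the same siRNA, and separate transfections are not shown for them, so they are not taken as an independent repeat. In 0 mM glucose at 16 h 2.91% of all IDs were lower and 1.11% higher, and 51.5% had a negative difference. There 100 of the lower genes had the same direction and 84 passed, and 33 of the higher genes had the same direction and 21 passed. Those wells come from the same transfections, so they are not an independent repeat. PERP fell by 1.29 there, SLC4A8 by 2.47 and NKAIN4 by 2.78, and CDH4 by 1.42.

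The siATF4 cells show what another siRNA in the same experiment did. Against them siATF6 cells had 64 calls (0.355%, with 0.266% lower and 0.0888% higher), and 29 of the 101 lower and 6 of the 34 higher genes passed in the same direction. In siATF4 against siControl 8 IDs passed (0.0444%, with 0.0222% lower and 0.0222% higher), among them 1 of the 101 lower genes and 1 of the 34 higher genes in the same direction. Of the lower genes that the rule named outside the lists, only ATF6 (0.11) and CDH4 (0.20) had a positive siATF4 difference. SLC4A8 differed by -1.33, SDK2 by -0.91, SDK1 by -0.73, SYT1 by -0.53 and PLD5 by -0.46, and none of these passed. Nor did these genes pass between siATF6 and siATF4 (adjusted p = 0.776, 0.413, 0.0725, 0.128 and 0.083). GPC6, NKAIN4, CDH4, LRRN2, PERP, SLC39A11 and MIR31HG did pass there. The siATF4 label could not be checked clearly on its own mRNA in 25 mM glucose at 16 h, where ATF4 stood at 131, 135 and 116 CPM against 177, 144 and 142 CPM in siControl (-0.28, adjusted p = 0.759). In other conditions ATF4 was at a lower level with siATF4, averaging 184 CPM ± 32.7 (SD, n = 3) against 450.2 CPM ± 34.5 in 0 mM glucose at 16 h and 158 CPM ± 45.5 against 349 CPM ± 35.7 in 25 mM glucose at 6 h. The comparison with siATF4 shares the siATF6 libraries with the main one, and that of siATF4 with siControl shares the siControl libraries.

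The genes that fell spanned more of the genome than most. The span of a gene, from its first to its last annotated base, had a median of 124 kb among the 101 lower genes, 17.3 kb among the 34 higher genes and 26.1 kb over all IDs tested. The median log2 fold change went down with span, from 0.08 in 3116 IDs of up to 5 kb and 0.04 in 4315 IDs of 20 to 50 kb, through -0.18 in 992 IDs of 200 to 500 kb and -0.42 in 173 of 500 to 1000 kb, to -0.50 in 29 above 1000 kb. Of the IDs spanning 200 to 500 kb 23 were lower (2.32%), of those of 500 to 1000 kb 12 (6.94%) and of those above 1000 kb 3 (10.3%). No ID above 200 kb was higher. CDH4 spans 688 kb, SDK1 968 kb, SLIT3 639 kb, SYT1 588 kb and GPC6 1181 kb. PERP, at 18.9 kb, and COL1A1, at 18.3 kb, are short genes among the lower ones.

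The lower medians of long genes were present in each siATF6 library. For the 202 IDs spanning over 500 kb the median log2 ratio to the siControl mean was -0.35, -0.40 and -0.33 in the siATF6 libraries and 0.05, -0.02 and -0.04 in the siControl libraries. In siATF4 libraries of 25 mM glucose it was 0.05, -0.26 and -0.05, and in those of 0 mM glucose -0.37, -0.01 and -0.59. The siATF6 libraries of 0 mM glucose had -0.30, -0.41 and -0.55, and the siControl libraries of 0 mM glucose -0.05, 0.03 and 0.06. At 6 h the median of siATF6 against siControl was -0.30 for 500 to 1000 kb and -0.51 above 1000 kb. Among IDs with at least 5 CPM the medians at 16 h were -0.28 in 93 IDs of 500 to 1000 kb and -0.21 in 12 above 1000 kb, so the values of the longest genes rest partly on transcripts of low level. The part of gene span in each gene's decrease was not tested.

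**Figure D5:**
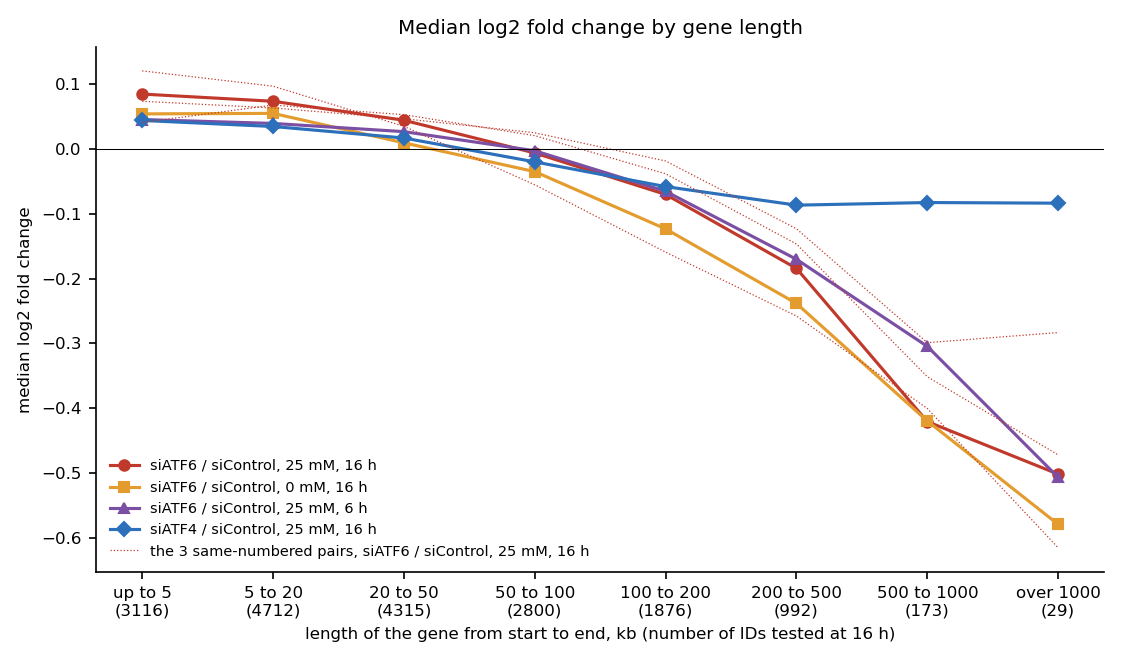
Median log2 fold change of gene IDs in bins of gene span (kb) for siATF6 against siControl in 25 mM glucose at 16 h, the other comparisons and, dotted, the 3 same-numbered pairs; each point is the median of 1 bin. The siATF6 lines go below 0 with span and reach -0.42 at 500 to 1000 kb, whereas siATF4 against siControl stands at -0.08 in that bin.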

How the data were processed

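RNA-seq of A549 cells was used as deposited by the authors: RSEM expected counts per gene for 60662 gene IDs in 36 libraries, made with fastp, STAR and RSEM on GRCh38, per the submitters' processing notes; versions and annotation release are not given in the sources used here. Of the deposited values 9.32% were not whole, and all were rounded to whole counts. R 4.3.3 with edgeR 4.0.16 was used: IDs were kept by filterByExpr (minimum count 10, minimum total 15), scaled by TMM and fitted with a robust quasi-likelihood model with 1 mean per group over the 18 libraries of 16 h. The 6 h libraries were fitted apart, without 1 library of 2867609 counts that lies outside the groups compared. P-values were adjusted over all IDs by Benjamini-Hochberg. The test was also run on simulated counts, which were drawn without shared deviations of same-numbered libraries. That run therefore does not check the test under such deviations. DESeq2 1.42.0 and the other settings of the closing section were alternatives.

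Same-numbered libraries of the compared groups deviated together over 11420 IDs (correlations 0.78, 0.56 and 0.67 for replicates 1, 2 and 3). Replicates 2 and 3 also deviated together across numbers. The correlation was 0.49 for siATF6 replicate 2 with siControl replicate 3, and 0.43 for siATF6 replicate 3 with siControl replicate 2. This check sets replicate 1 apart more clearly than it tells replicates 2 and 3 apart, so the pairing comes from the labels' replicate numbers.

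The rule named ATF6, the 12 genes per direction with the largest change and the 5 with the smallest adjusted p among called genes with a mean of at least 5 CPM in a group and the same direction in 3 pairs, and of each list the members with the smallest adjusted p. HSPA5, HSP90B1, PDIA4 and HERPUD1 were added as textbook targets, and genes that passed only with the block were named after their values were seen. Some genes that the rule names are not reported here. The members, lists and rules were chosen with earlier results of these data known. Reads carry no strand, so overlapping genes cannot be told apart; exon overlaps come from GENCODE 29, in which 10063 of 17791 matched IDs have the same start and end as in the deposited table. Promoter sequences are from RefSeq (GRCh38.p14). Gene coordinates are the authors' own.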

Additional observations from a re-analysis of the deposited data

Results flagged for a closer look

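For 2 genes the siATF6 effect differed between the glucose levels when the replicate number was a block in edgeR's quasi-likelihood test. STEAP3, a metalloreductase chosen after its values were seen, stood at 102, 107 and 104 CPM in siControl and at 98.9, 112 and 109 CPM in siATF6 in 25 mM glucose, and averaged 195 CPM ± 30.0 (SD, n = 3) against 95.9 CPM ± 3.24 in 0 mM glucose. The difference between its effects was -1.04 on the log2 scale (adjusted p = 0.0185 with the block and 0.084 without it). For PDIA4 the difference was -0.95 (adjusted p = 0.0496 with the block and 0.356 without it), with siControl at 2426 CPM ± 60.6 and siATF6 at 1133 CPM ± 98.2 in 0 mM glucose.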

How the results depend on the processing

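In 25 mM glucose at 16 h 135 genes were called, and alternatives gave 141 (median-of-ratios factors), 77 (no filter on low counts), 161 (upper-quartile factors), 531 (replicate block), 500 (DESeq2), 942 (only the 6 libraries compared) and 4 (all 36 libraries in 1 fit). An added alternative, chosen after seeing the data, left out the siATF4 library in 0 mM glucose that stood apart and gave 324. Of the 135 genes 133 were called with median-of-ratios factors, 123 with upper-quartile factors, 76 without a filter, 132 in the 6 libraries alone, 4 with all 36 libraries, and all 135 with the block, with DESeq2 and with 17 libraries. Leaving out 1 library gave 19 to 92. For 0 mM glucose, with 725 calls, no filter gave 448, the block 1836, DESeq2 1569 (56.2% lower, against 72.4%), all 36 libraries 10, 17 libraries 1738 (59.1% lower) and 1 library left out 207 to 890. For the difference between glucose levels, with 0 calls, the block gave 2, DESeq2 18, the compared libraries 7, 17 libraries 6 and 1 library left out 0 to 1. Against siATF4, with 64 calls, the block gave 365, DESeq2 337, the compared libraries 14, all 36 libraries 5, 17 libraries 209 and 1 library left out 10 to 46. At 6 h, with 91 calls, the block gave 910, DESeq2 450, the compared libraries 2, replicate 2 left out 16 and 1 library left out 1 to 61. Without 1 library MT-CO1, not called, ranged from -0.50 to 0.0114 (without siControl replicate 3) and FDPS, not called, from -0.00783 (without siATF6 replicate 1) to 0.25. The block changed no call of the named genes beyond those given beside the results. The median of genes spanning over 500 kb, -0.44, ranged from -0.44 to -0.36 without 1 library. Depth limits genes of a few CPM most.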
